A study of Bos taurus with 20 samples.

Results

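PPIC and CD109 were the genes examined here, each through the 1 probe of the array that is named for it, so 2 of 19754 genes or transcripts, read by 2 of 21475 probes. Both were chosen because their signal in earlier results of the same data was higher in skin of scurred cattle than in skin of polled and horned cattle. Their differences between scurred and other animals are therefore a description, with standard errors and no test. Polled minus horned, male minus female and horn site minus control site did not enter the choice by name, and those were tested.

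PPIC encodes cyclophilin C, a peptidyl-prolyl isomerase of the secretory pathway. Cyclophilins turn the bonds that precede proline in a protein chain and so help proteins fold, and they bind the drug cyclosporin, which in that complex inhibits the phosphatase calcineurin. CD109 encodes a protein tethered to the outer face of the cell membrane by a lipid anchor, of the family of alpha-2-macroglobulin and complement C3. It is known in skin as a co-receptor that restrains signalling by transforming growth factor beta (TGF-beta), and it is found on keratinocytes, activated T cells and platelets.

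Biopsies of full skin thickness, with connective tissue below it, came from the part of the head where horns grow, and RNA was hybridised in pairs to Agilent 2-colour arrays. There were 4 polled animals (hornless, 1 male and 3 females), 4 scurred animals (with small loose horns, 3 males and 1 female) and 3 horned animals (2 males and 1 female). Skin of the skull away from the horn site was taken as control from 1 polled and 1 scurred animal. No treatment or genotype was labelled, and age and breed are not given in the sources used here. Of 20 arrays on 5 chips, 16 on chips 1 to 4 joined 1 polled, 1 scurred and 1 horned animal per chip as a triangle of pairs, and the pair of polled and horned was run in both dye orders. The 4 arrays of chip 5 paired the horn site with control skin in polled replicate 3 and in scurred replicate 2. Horned replicate 2 was used on chips 2 and 4, so animals are numbered by chip apart from that. The scurred and the polled animal of a chip were of the same sex on 0 of 4 chips, scurred and horned on 3 of 4, and polled and horned on 1 of 4. Horn type and sex thus overlap, above all for scurred against polled.

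The array reads each gene through a DNA oligonucleotide of 60 bases, and these sequences decide what the values count. They are printed 5′ to 3′ as the deposited files give them, in lower case throughout, with nothing marked.
PPIC probe A_73_117184: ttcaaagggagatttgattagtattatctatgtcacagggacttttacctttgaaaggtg
CD109 probe A_73_111863: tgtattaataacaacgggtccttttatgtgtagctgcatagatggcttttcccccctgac
The probe for PPIC has a GC content of 35.0% and that for CD109 of 43.3%. The longest run of bases shared with any of the 21474 other probes, on either strand, was 13 bases for PPIC and 15 bases for CD109, so no other probe of the array covers the same stretch. The array files name both by placeholder genes (LOC535494 and LOC534043) described as similar to human PPIC and CD109, and the bovine RefSeq table of assembly ARS-UCD2.0 gives those symbols. In the gene order of that table PPIC lies between PRDM6 and SNX24, and CD109 between SLC17A5 and COL12A1. Which exon or untranslated region the probes match was not analysed here. A further probe, described as similar to CD109 but not paired with that symbol, was too dim to be tested, and it is shown to make clear that it reads other bases.
LOC522252 probe A_73_100639: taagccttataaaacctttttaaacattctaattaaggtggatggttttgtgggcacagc

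Both probes were bright. PPIC had a mean signal of 757 to 7922 over both dyes of its 40 spots (duplicate spots on 20 arrays) against a local background of 55 to 77, and CD109 of 481 to 4938 against 53.5 to 76. All 40 spots of each gene were well above background, 0 were saturated and 0 carried an outlier mark. Duplicate spots on an array differed by a median of 0.08 on the log2 scale for PPIC (at most 0.44) and 0.185 for CD109 (at most 0.42). Over whole arrays, 62.24% to 73.75% of spots were well above background. The small number of animals limits the precision of what follows.

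PPIC was higher in each scurred animal than in any other animal. Its level, as normalized log2 intensity of the horn site, was 12.18, 11.62, 12.41 and 12.03 in scurred replicates 1 to 4 (mean 12.06 ± 0.33 SD, n = 4). In horned replicates 1 to 3 it was 11.3, 11.12 and 10.83 (mean 11.08 ± 0.24 SD, n = 3). In polled replicates 1 to 4 it was 11.3, 10.09, 11.25 and 10.64 (mean 10.82 ± 0.57 SD, n = 4). The lowest scurred animal, replicate 2, lay 0.32 above the highest other animal, whereas the polled and horned animals overlapped. Polled animals were the most spread, with replicates 1 and 3 at the level of horned skin and replicates 2 and 4 below it. Because biopsies mix cell types, fewer cells of a type and less RNA per cell cannot be told apart in any of these values.

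CD109 had the same order of means, with less spread than PPIC among scurred and polled animals and more among horned animals. Scurred replicates 1 to 4 had log2 levels of 11.4, 11.14, 11.26 and 11.42 (mean 11.31 ± 0.13 SD, n = 4). Horned replicates 1 to 3 had 11.03, 10.41 and 10.55 (mean 10.66 ± 0.32 SD, n = 3), and polled replicates 1 to 4 had 10.42, 10.01, 10.2 and 10.27 (mean 10.23 ± 0.17 SD, n = 4). The lowest scurred animal lay 0.11 above the highest other one, which was horned replicate 1. Polled and horned animals touched, with the highest polled animal at 10.42 and the lowest horned animal at 10.41. For both genes the order of the means was scurred, horned, polled, and the levels of the neighbours horned and polled overlapped. Every scurred level lay above every polled and horned level at 14 of 16309 probes (0.0858%), and since the genes were chosen on this contrast nothing is read from their being among them.

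**Figure D1:**
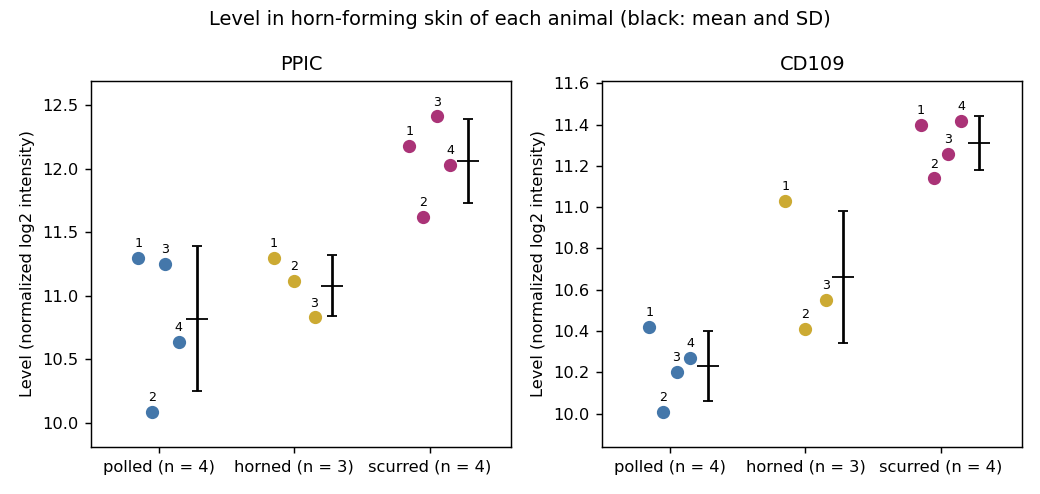
Level of PPIC (left) and CD109 (right) at the horn site of each animal, as normalized log2 intensity; points are animals with their replicate number, black marks the mean and SD of each horn type, and the axes do not start at 0. The 4 scurred animals lie above all others for both genes, from 11.62 for PPIC and from 11.14 for CD109.

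The 14 probes also show what lies around the pair. By the gap between the lowest scurred and the highest other animal, PPIC had the widest at 0.322, and CD109 had 0.112. Between them were C1QTNF3, a secreted protein with a C1q domain, at 0.155 and BDKRB1, the B1 receptor for bradykinin, at 0.153. The next was GPR160, an orphan receptor, at 0.107, and the last with a gene symbol were COL5A3, a chain of type V collagen, at 0.00851 and UBE2D2, an enzyme that conjugates ubiquitin, at 0.000498. These names were picked after their values were seen. Nothing is read from the places of PPIC and CD109 in this order, since both were chosen on this contrast.

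Differences between animals of 1 chip are the quantity the arrays measure directly. Scurred minus horned for PPIC was 0.95, 0.57, 1.56 and 0.91 on the log2 scale on chips 1 to 4 (mean 1.0 ± 0.41 SD), which is 1.49 to 2.94 times the horned level. Scurred minus polled for PPIC was 0.91, 1.53, 1.09 and 1.4 (mean 1.23 ± 0.28 SD), or 1.88 to 2.89 times the polled level. All 4 chips lay above 0 in both comparisons, and no chip of the second fell below a log2 difference of 0.91. Adjusted for sex, with the chip as a block, scurred minus horned was 1.13 (SE 0.207, 2.19-fold) and scurred minus polled 1.4 (SE 0.211, 2.64-fold). Scurred animals enter both comparisons, so the values are set side by side and do not support each other.

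For CD109, scurred minus horned was 0.37, 0.79, 0.69 and 0.98 on chips 1 to 4 (mean 0.71 ± 0.26 SD), 1.29 to 1.98 times the horned level. Scurred minus polled was 0.97, 1.12, 1.03 and 1.15 (mean 1.07 ± 0.09 SD), 1.95 to 2.23 times the polled level. The second comparison was nearly the same size on every chip. The fit gave 0.67 (SE 0.125, 1.59-fold) for scurred minus horned and 1.04 (SE 0.127, 2.06-fold) for scurred minus polled. Chip 2 is the only chip whose polled animal was male, and without it the fitted scurred minus polled difference of CD109 was 0.67 (SE 0.267) and that of PPIC 1.68 (SE 0.372). Chip 1, which was scanned apart from the others, gave the smallest scurred minus polled difference of both genes, and without it the fit gave 1.44 (SE 0.258) for PPIC and 1.09 (SE 0.12) for CD109. Across all probes, scurred was above horned on 4 of 4 chips at 8.49%, above polled at 9.64% and above both at 1.58%, and the median difference of all probes was 0.006 for scurred minus horned and −0.006 for scurred minus polled.

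**Figure D2:**
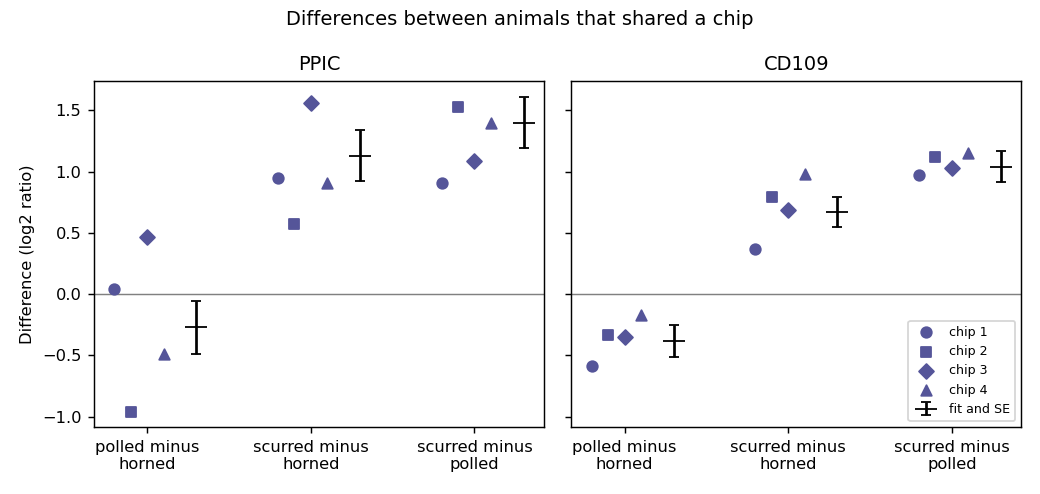
Log2 differences between the animals that shared a chip, for PPIC (left) and CD109 (right); symbols are chips 1 to 4, black marks the sex-adjusted fit and its SE, and the grey line is no difference. All 8 scurred differences of each gene lie above 0, while polled minus horned of PPIC falls on both sides.

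The single arrays gave the same direction, with each scurred pair run in 1 dye order only. With PPIC, the array of scurred against horned read 0.98, 0.48, 1.43 and 0.79 in favour of scurred on chips 1 to 4, with scurred in green, and the array of scurred against polled read 0.88, 1.62, 1.21 and 1.51, with scurred in red. With CD109 these were 0.37, 0.78, 0.64 and 0.9, and 0.97, 1.12, 1.08 and 1.24. After normalization the ratio favoured scurred skin in all 16 of those readings, which are of the contrast that both genes were chosen on. Scurred was always green against horned and always red against polled. Dye and comparison therefore cannot be told apart in these readings. Polled against horned was run with both dye orders, which differed by 0.06 to 0.36 for PPIC and by 0.03 to 0.43 for CD109. The direct polled and horned difference and the one through the scurred animal differed by at most 0.26 for PPIC and 0.18 for CD109.

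Polled minus horned was tested, and neither gene passed. PPIC stood at 0.04, −0.96, 0.47 and −0.49 on chips 1 to 4, so polled animals lay on both sides of the horned animal of their chip. On chip 1 the dye orders read 0.01 and −0.05, so the sign there is not settled. The fit gave −0.27 (SE 0.217, 95% interval −0.78 to 0.25, p 0.257, adjusted p 0.726 by limma, two-sided). CD109 stood at −0.59, −0.33, −0.35 and −0.17, so the polled animal lay below the horned one on 4 of 4 chips. Chips 2 and 4 share horned replicate 2, and on chip 4 the dye orders read 0.06 and −0.37. The fit of CD109 gave −0.38 (SE 0.131, 95% interval −0.69 to −0.07, p 0.0236, adjusted p 0.507 by limma). Of 16309 probes, 9.17% had an unadjusted p under 0.05 in this comparison, 0.00613% passed after adjustment, and 13.1% were lower on 4 of 4 chips, as CD109 was. Horned animals enter scurred minus horned as well, and a low polled value and a high scurred value of CD109 were measured against the same horned RNA.

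Sex was looked at because it overlaps with horn type. Among males, PPIC had a log2 level of 12.03 to 12.41 in the 3 scurred, 10.83 to 11.3 in the 2 horned and 10.09 in the 1 polled animal. Among females it had 11.62 in the 1 scurred, 11.12 in the 1 horned and 10.64 to 11.3 in the 3 polled animals. Every scurred animal lay above every other animal, so the same order within each sex follows from that and adds nothing. There was 1 scurred female only. CD109 had 11.26 to 11.42, 10.55 to 11.03 and 10.01 in scurred, horned and polled males, and 11.14, 10.41 and 10.2 to 10.42 in scurred, horned and polled females. The fitted male minus female difference was −0.34 for PPIC (SE 0.189, 95% interval −0.78 to 0.11, p 0.119, adjusted p 1 by limma) and 0.05 for CD109 (SE 0.114, 95% interval −0.22 to 0.32, p 0.698, adjusted p 1 by limma). By this measure 2.16% of probes had an unadjusted p under 0.05 and 0.0184% passed after adjustment.

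Chip 5 set the horn site against skull skin away from it, in the same animals. PPIC of polled replicate 3 had log2 levels of 11.46 and 11.26 at the horn site and 11.6 and 11.69 in control skin, in its 2 arrays. PPIC of scurred replicate 2 had 11.71 and 11.56 at the horn site and 11.58 and 11.54 in control skin. Horn site minus control site was −0.29 in the polled and 0.08 in the scurred animal, and their mean of −0.11 did not pass (SE 0.146, 95% interval −0.57 to 0.36, p 0.522, adjusted p 1 by limma, n = 2). In control skin the scurred animal lay 0.09 below the polled one (−0.09), against 0.27 above it at the horn site. The 2 animals shared no array of chip 5, so these gaps compare levels of separate arrays. Those animals were the lowest scurred and the second highest polled one for PPIC on chips 1 to 4.

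CD109 gave other values on the same arrays. Polled replicate 3 had 10.2 and 10.08 at the horn site and 10.68 and 10.57 in control skin, and scurred replicate 2 had 11.09 and 11.18 at the horn site and 11.23 and 11.16 in control skin. Horn site minus control site was −0.48 in the polled and −0.06 in the scurred animal, with a mean of −0.27 that did not pass (SE 0.16, 95% interval −0.78 to 0.24, p 0.191, adjusted p 0.947 by limma, n = 2). The scurred animal lay above the polled one by 1 at the horn site and by 0.58 in control skin, again between levels of separate arrays. A gap of over 0.5 at both sites was found at 5.89% of 16422 probes in this pair of animals, and 4.9% had an unadjusted p under 0.05 for horn site minus control site. With 1 animal of each horn type, the difference between horn types at the control site could not be tested.

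PPIC and CD109 followed each other across animals. Centred within each chip, scurred animals had PPIC values of 0.62 to 0.88 and CD109 values of 0.45 to 0.71. Polled animals had PPIC at −0.29, −0.83, −0.21 and −0.63 and CD109 at −0.52, −0.48, −0.46 and −0.44 on chips 1 to 4. Over the 12 animal-by-chip values Pearson's r was 0.877, a description only, since both genes were chosen for the same contrast, horned replicate 2 counts in 2 chips, and the 3 values of a chip sum to 0. Below the scurred animals the order was less alike: the lowest centred PPIC value was that of the polled animal of chip 2 and the lowest CD109 value that of chip 1. Horned animals spread from −0.67 to 0.13 in PPIC and from −0.27 to 0.07 in CD109.

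**Figure D3:**
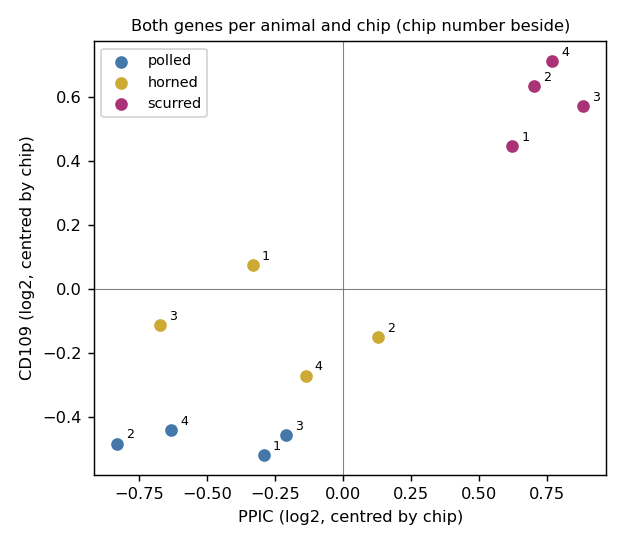
PPIC (horizontal) against CD109 (vertical) per animal and chip, in log2 units centred within each chip; the number beside a point is its chip. The 4 scurred points stand apart at the upper right (PPIC from 0.62, CD109 from 0.45), and polled and horned points lie below 0 in at least 1 of the genes.

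The genes most like each member were taken by the same Pearson's r over those 12 values, among 11849 genes with 1 probe each. For PPIC they were GPR35, a receptor for kynurenic acid, at 0.938, FXYD5, a regulator of the sodium pump, at 0.933, BDKRB1 at 0.92, HSPA1L, a chaperone of the HSP70 family, at 0.903 and FUCA2, a secreted fucosidase, at 0.902. Of these FXYD5 and FUCA2 had a scurred minus horned difference of 0.45 and 0.48, while GPR35 and HSPA1L had 0.12 and 0.06. The most opposed were VPS50, a subunit of a tether for recycling vesicles, at −0.934 and ATAD1, an ATPase of mitochondria, at −0.908.

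For CD109 the most alike were SLC39A7, a zinc transporter of the endoplasmic reticulum, at 0.969, TMED3, a cargo receptor of early secretory vesicles, at 0.959, A1BG, a plasma glycoprotein, at 0.954, MRPS28, a mitochondrial ribosomal protein, at 0.936 and ECM1, a matrix protein of skin, at 0.93. TMED3 had a scurred minus horned difference of 0.56 (0.38 to 0.9 on single chips) and a scurred minus polled difference of 0.84. SLC39A7 had 0.31 and 0.66, and ECM1 0.25 and 0.54. The most opposed were GPATCH1, a protein of the spliceosome, at −0.982 and CTCF, the insulator factor, at −0.964. These are the extremes of many correlations over few animals, and GPR35, HSPA1L and A1BG differed between scurred and horned animals by 0.12 or less.

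The other cyclophilins did not share the pattern of PPIC. Of 17 genes in the list, 16 had a probe and 14 were tested; PPIL2 and PPIL6 were too dim, and no probe was matched to RANBP2. Scurred minus horned was above 0 in 6 and below 0 in 8 of the 14, with a median of −0.02 that includes PPIC. Of the 13 others, 0 passed the adjusted threshold in limma, as did 0 of all probes, of which 3.76% had an unadjusted p under 0.05. After PPIC at 1.13 came PPIF, the cyclophilin of mitochondria, at 0.42 (SE 0.353), with 1.31, 0.6, −0.04 and 0.35 on chips 1 to 4. PPIF was the highest in polled minus horned too, at 0.94 and higher on 4 of 4 chips, as were 14.0% of all probes, so that its scurred minus polled value was −0.52.

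PPIB, the cyclophilin that shares the secretory pathway with PPIC, stood at 0.0 for scurred minus horned. It lay at −0.44 for polled minus horned, lower on 4 of 4 chips, as were 13.1% of all probes. For scurred minus polled PPIB lay at 0.44, higher on 4 of 4 chips, as were 9.64% of all probes. PPIA, the abundant cytosolic member, stood at 0.01, and its other probe at 0.06. PPIG, PPIH, PPIL1, PPID and NKTR lay from −0.07 to 0.05. PPWD1 stood at −0.18 and PPIL3 at −0.26. PPIL4 at −0.09, PPIE at −0.21 and CWC27 at −0.22 were lower on 4 of 4 chips, as were 9.59% of all probes. Against polled skin, 4 cyclophilins were higher and 10 lower in scurred skin, with a median of −0.12, PPIC included, and 0 of the 13 others past the threshold.

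Of the relatives of CD109, C3 and C4A varied most between chips. Of 8 genes in the list, 7 had a probe and 6 were tested; C5 was too dim, and no probe was matched to PZP. Scurred minus horned was above 0 in 2 and below 0 in 4, with a median of −0.1 that includes CD109, and 0 of the 5 others passed in limma. CPAMD8, a secreted relative, stood at 0.14 and was the other one above 0 on 4 of 4 chips, as were 8.49% of all probes. The protease inhibitors A2ML1 and A2M stood at −0.07 and −0.12. C3, the central complement protein, stood at −0.71 with −1.95, 1.2, −1.29 and 0.07 on single chips, and C4A at −1.0 with −3.6, 0.49, −0.61 and −0.15. C4A is uncertain as a gene, because complement C4 has near-identical copies that a probe may not separate. Scurred minus polled had a median of 0.04 over the 6, with CD109 highest at 1.04 and C3 lowest at −0.03.

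**Figure D4:**
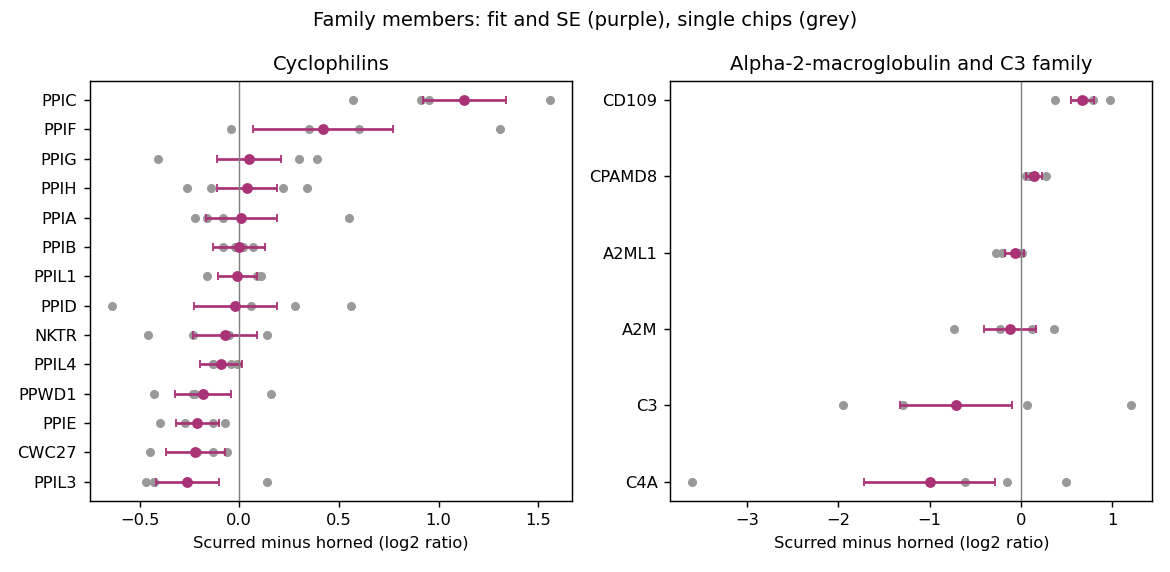
Scurred minus horned, as a log2 ratio, for the 14 tested cyclophilins (left) and the 6 tested genes of the alpha-2-macroglobulin and C3 family (right); purple marks the fit and its SE, grey points are single chips, and the panels have different scales. PPIC at 1.13 and CD109 at 0.67 head their families, and most relatives lie near 0.

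PPIC belongs to the secretory pathway, as do the proteins that fold and modify collagen in the endoplasmic reticulum. Of 27 genes for such proteins 25 were tested, and a part of PPIC in that work was not tested. Scurred minus horned was above 0 in 13 and below 0 in 12, with a median of 0.01. Furthest from 0 were COLGALT2, which adds galactose to collagen, at −0.56, FKBP9, an isomerase of another family, at −0.41, PLOD2, a lysyl hydroxylase, at 0.37 and P4HA2, a prolyl hydroxylase, at 0.36. Scurred minus polled differed in balance, with 18 above and 7 below 0, a median of 0.35 and 13 genes higher on 4 of 4 chips, where 9.64% of all probes were. FKBP7 was the highest at 1.37 (SE 0.524), with no difference to 2 decimals on chip 1. Polled minus horned had 6 above and 19 below 0 and a median of −0.31. No gene of the list passed the adjusted threshold in any of the 3 comparisons (lowest adjusted p 0.784 for scurred minus polled, limma), and 6.08% of all probes had an unadjusted p under 0.05 in scurred minus polled.

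CD109 is tied to TGF-beta, and 21 of 23 genes for its ligands, receptors and signal carriers were tested. Scurred minus horned was above 0 in 12 and below 0 in 9, with a median of 0.08, and 0 passed. LTBP2, which binds microfibrils, stood at 0.64 (SE 0.502), TGFB2, a ligand, at 0.62 (SE 0.389), SMURF2, a ligase that removes receptors, at 0.38 (SE 0.159) and LTBP4, which holds latent ligand in the matrix, at −0.35 (SE 0.286). TGFB2, SMURF2 and the ligand TGFB1 (0.19, SE 0.0983) were higher on 4 of 4 chips, where 8.49% of all probes were; TGFB1 was named after its values were seen. Scurred minus polled had 14 above and 7 below 0 and a median of 0.12.

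Genes known to be induced by TGF-beta were more spread. All 11 were tested, and 5 of them are also markers of fibroblasts or smooth muscle. Scurred minus horned was above 0 in 7 and below 0 in 4, with a median of 0.04 and chip medians from −1.12 to 1.05. TGFBI, a secreted matrix protein, stood at 0.99 with 1.15, 0.66, 1.01 and 1.13 on chips 1 to 4. It was the only one of the list higher on 4 of 4 chips in both scurred comparisons, as were 1.58% of all probes. ACTA2, smooth muscle actin, stood at −0.94 and FN1, fibronectin, at 0.81. Scurred minus polled had 7 above and 4 below 0 and a median of 1.07, and 0 passed in either comparison.

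Calcineurin and the NFAT factors it activates, which cyclosporin bound to a cyclophilin inhibits, had 8 of 10 genes tested. Scurred minus horned was above 0 in 4 and below 0 in 4, with a median of 0.03. RCAN1, a regulator of calcineurin, stood at 0.72 (SE 0.301) and RCAN2 at −0.6 (SE 0.384). RCAN1 was higher on 4 of 4 chips, as were 8.49% of all probes. NFATC1 stood at 0.49 and PPP3CC, a catalytic subunit, at 0.36, and 0 of the list passed.

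The make-up of the biopsies differed between animals, and those values stand beside the members' own. All defining markers of keratinocytes (8 of 8) and fibroblasts (9 of 9) were measured, as the label skin requires. Keratinocyte markers had a mean log2 level of 9.64 to 13.49 in scurred, 9.53 to 10.5 in horned and 10.62 to 12.27 in polled animals. Their median difference was 3.86, 2.72, 0.36 and −0.42 for scurred minus horned on chips 1 to 4, and over the 12 centred values it had an r of 0.02 with PPIC and −0.06 with CD109. Red cell markers (2 of 3 measured) stood at 3.15 for scurred minus horned, 2.62 for polled minus horned and 0.53 for scurred minus polled. Their r was 0.34 and 0.18. T cell markers (4 of 4) stood at 0.81 for scurred minus horned, 0.75 for polled minus horned and 0.04 for scurred minus polled. Against horned skin each of the 4 was higher in scurred skin on 4 of 4 chips, where 8.49% of all probes were. Their r was 0.23 and 0.11. By the medians of both lists, polled skin thus lay above horned skin too. The part of these in the members' differences was not tested.

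Macrophage and fibroblast markers were closer to the members. Macrophage markers (5 of 5 measured) had a median scurred minus polled difference of 0.99, from 0.46 to 1.59 on single chips. Where 9.64% of all probes were higher on 4 of 4 chips, all 5 genes were, from CSF1R at 0.77 to C1QB at 1.34. Against horned skin their median was 0.16, from −1.13 to 1.49. Their mean log2 level was 12.57 to 13.45 in scurred, 11.45 to 13.0 in polled and 12.11 to 13.61 in horned animals, so scurred animals overlapped both other groups. Fibroblast markers had a median of 1.07 for scurred minus polled, from −0.15 to 2.05 on single chips, and 0.04 for scurred minus horned. Against polled skin 9 of 9 were above 0, where 48.6% of all probes were, but only 1 was higher on 4 of 4 chips. Their mean log2 level was 13.89 to 15.1 in scurred, 13.38 to 14.59 in polled and 14.76 to 14.94 in horned animals. With PPIC and CD109, r over the 12 values was 0.64 and 0.67 for macrophage and 0.58 and 0.58 for fibroblast markers, and it was −0.62 and −0.48 for the 3 hair follicle markers. Their part in the members' differences was not tested. For scurred minus horned on chips 1 to 4, macrophage markers had medians of −1.13, 0.17, 1.49 and 0.69 and fibroblast markers −1.12, 0.04, 0.46 and 0.37, so both lists lay above 0 with the members on chips 2 to 4 and below 0 on chip 1.

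Further cell types moved less in step. Endothelial markers had a median of −0.59 for scurred minus horned and −0.07 for scurred minus polled, smooth muscle markers −1.05 and −0.45, adipocyte markers −0.07 and 0.47, Schwann cell markers −0.28 and 0.16, and cartilage and bone markers 0.27 and 0.15. Melanocyte markers stood at 1.43 and −0.3 and skeletal muscle markers at 1.03 and −0.37, with chip values on both sides of 0. No marker gene passed the adjusted threshold in either scurred comparison, where 0 of all 16309 probes did.

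**Figure D5:**
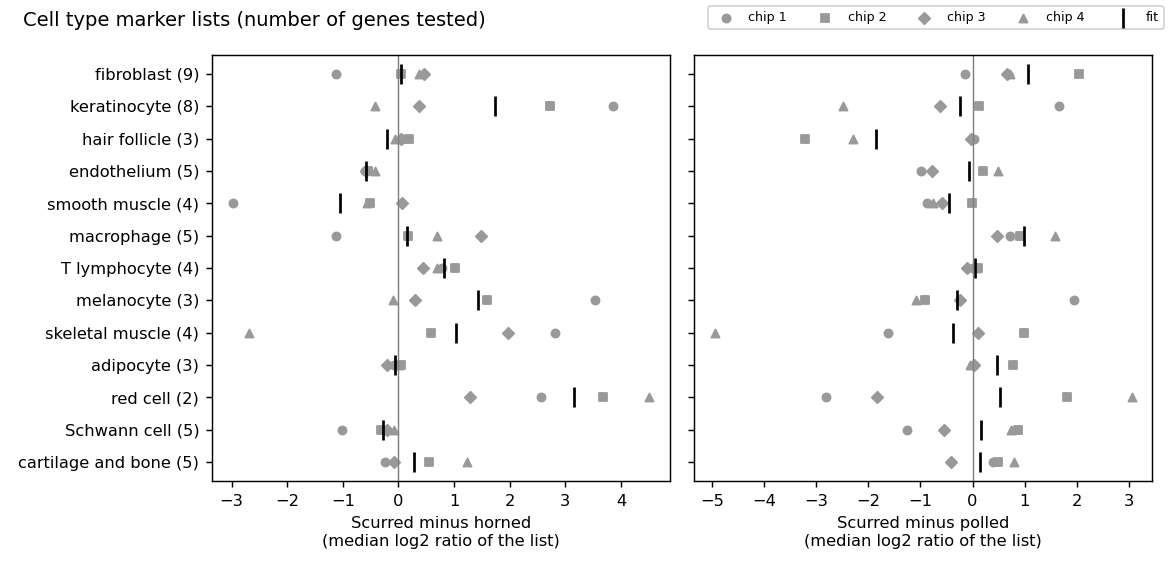
Median log2 ratio of each cell type marker list, scurred minus horned (left) and scurred minus polled (right); grey symbols are chips 1 to 4, black bars the fit, and the number of genes is in parentheses. Macrophage markers lie above 0 on every chip against polled skin (0.46 to 1.59) but from −1.13 to 1.49 against horned skin.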

How the data were processed

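The scanner files deposited by the authors hold, for every spot and dye, the mean intensity (linear scale) and the local background. Per the submitters' processing notes they come from Agilent Feature Extraction 9.5.1. The deposited table of the series holds log10 ratios of red over green and served as an alternative. Groups and dyes (red is Cy5) follow the labels. Per the file headers, the scan of chip 1 was on a different day from the others.

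Background correction of the mean intensities used normexp with an offset of 50, and loess normalized each array, in limma 3.58.1 (R 4.3.3, with version 1.17.8 of data.table). Control spots had no weight in the loess, marked outlier spots were left out and duplicate spots averaged. Log2 levels per animal came from the same data after scaling between arrays (Aquantile). All log2 ratios were computed from the deposited intensities, and levels and chip differences are not adjusted for sex. Tests took in the 16309 probes that were well above background in 3 or more of 11 animals, and on chip 5 the 16422 that were so in 2 or more of 4 RNAs. Each chip was reduced to 1 value per animal with a coefficient for dye, and the differences from the horned animal were fitted by generalized least squares, with polled, scurred and male as terms. Moderated two-sided tests had 5 residual degrees of freedom and were adjusted over all probes (Benjamini-Hochberg, threshold 0.05). The fit was tested on simulated data. The 2 animals of chip 5 were averaged and tested against 0.

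The chip is a block because the labels put the 3 animals on 1 slide. Deviations of a polled and a scurred animal from their groups were compared across probes, which are not independent. Their correlation was 0.237, 0.287, 0.422 and −0.082 within chips 1 to 4, and −0.131, −0.13, −0.071 and 0.057 on average between chips. Deviations from a group sum to 0 over its animals, which pulls the values between chips to the opposite sign. The values between chips thus add nothing to those within chips. A symbol was found for 16242 of 21475 probes (gene identifier 9717, accession 3398, human gene of the description 2971, symbol 126, older symbol 30). The members and gene lists were chosen with earlier results of these data known. Genes named are the 2 members, all measured relatives, of other pathway lists the 4 with the largest scurred minus horned difference, list extremes, and the 5 most alike and 2 most opposed genes, at the brightest probe of each gene, of which 1 gene is not reported here. Alternatives were the scanner software's signals, median centring, the series table, other filters, no sex term, no block, and each chip or animal left out.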

Additional observations from a re-analysis of the deposited data

Results flagged for a closer look

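The horn site minus control site difference of PPIC was −0.29 in polled replicate 3 and 0.08 in scurred replicate 2, on the log2 scale. It drew attention because the values of the 2 animals had opposite signs, though 0.08 was smaller than the SE of their mean (0.146). Each value is the mean of 2 arrays of 1 animal, and the difference between the animals was not tested. In 10 groups of 4 values (levels per animal and differences per chip), no single value lay far enough from its neighbours to pass Dixon's limit.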

How the results depend on the processing

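With the scanner software's signals, median centring, the series table, other filters, no sex term or no replicate block, both genes kept their direction in every comparison, and neither passed in those that were tested. Scurred minus horned lay from 0.99 to 1.13 for PPIC and from 0.53 to 0.67 for CD109, and scurred minus polled from 1.23 to 1.42 and from 1.0 to 1.11. Without the replicate block these were 0.99 and 0.64 (scurred minus horned) and 1.32 and 1.03 (scurred minus polled), and polled minus horned was −0.33 and −0.40, and no call of a member changed. Adjusted p for polled minus horned ran from 0.735 to 0.932 for PPIC and from 0.38 to 0.757 for CD109.

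With a chip or animal left out (15 fits), PPIC ran from 0.92 to 1.33 (scurred minus horned), 1.14 to 1.71 (scurred minus polled), −0.45 to −0.05 (polled minus horned) and −0.57 to −0.09 (male minus female). CD109 ran from 0.56 to 0.80, 0.67 to 1.11, −0.53 to −0.11 and −0.01 to 0.38, the last with the sign turned or at 0.00 in 4 fits (−0.01 without horned replicate 1, −0.01 without horned replicate 2, and 0.00 without scurred replicate 4 or without chip 4); it passed in none. The lowest adjusted p for polled minus horned were 0.513 and 0.306. Scurred minus polled of PPIC was 1.71 without scurred replicate 2, and that of CD109 was 0.87 without polled replicate 2. Horn site minus control site ran from −0.29 to 0.08 for PPIC and from −0.48 to −0.06 for CD109 with 1 animal alone, and was −0.43 and −0.56 with median centring. The cause was not tested.

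The number of probes called over the whole array was 1 for polled minus horned and 0 with the scanner software's signals, median centring or the series table (0 to 1 over the 15 fits). For scurred minus horned it was 0, and 1 with median centring (0 to 1 over those fits), and for scurred minus polled 0, and 1 with no sex term (0 in each of those fits).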
